A study of Mus musculus with 8 samples.

Results

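The myosin light chain and myosin-binding protein genes described here were Myl1, Myl4, Mylpf, Mylk2, Mybpc1, Mybpc2 and Mybph. They were selected by symbol, as 7 of the 37558 genes in a table of raw read counts per Ensembl gene, and all 7 were found. RNA was measured in P19, a mouse embryonal carcinoma cell line able to form neurons or muscle in culture, to ask how the DNA-binding domain of MyoD, a muscle-forming transcription factor, and of NeuroD2, a neuron-forming one, bears on the genes that are turned on. Each culture received a lentivirus with GFP, MyoD, NeuroD2, a chimera (MyoD carrying the bHLH DNA-binding domain of NeuroD2 in place of its own), or a mutant of the chimera labelled WC or WCS. The chimera and WCS were also measured at a multiplicity of infection (MOI) of 100, and no MOI is labelled for the other 6 libraries. All cultures, the GFP control included, got polybrene at 8 ug/ml with the virus and fresh medium at 24 hours. They were transferred at 48 hours to Neurobasal, a medium for neurons, with B27 supplement. What WC and WCS change in the protein, the viral promoter and the share of cells that took up virus are not given in the labels. Each of the 8 groups was 1 library with no second culture, so the values below compare libraries.

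A sarcomere is the contractile unit of striated muscle, and its thick filaments are built of myosin. Each myosin heavy chain carries an essential and a regulatory light chain on its neck, and light chain kinases phosphorylate the regulatory one. Myosin-binding proteins sit along the thick filament and tie it into the sarcomere. Myl1 encodes the fast-muscle essential light chain and Myl4 the essential light chain of embryonic muscle and of the cardiac atrium. Mylpf encodes the fast-muscle regulatory light chain and Mylk2 the skeletal muscle light chain kinase. Mybpc1 and Mybpc2 encode the slow-muscle and fast-muscle forms of myosin-binding protein C, and Mybph encodes the shorter protein H. MyoD and NeuroD2 bind E-boxes, short DNA sites of the form CANNTG.

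Library totals ran from 26410500 to 43984066 counts. Values are CPM, library-size scaled read counts with TMM factors, and 3 counts correspond to 0.073 to 0.115 CPM. The 95% intervals cover counting error alone, with 1 library a group. PCR-amplified reads are not independent molecules, so the intervals can understate even that error. The 5 markers fixed for P19 cells were above 1 CPM in all 8 libraries, with sums from 389 CPM (chimera at MOI 100) to 2650 CPM (GFP). Skeletal muscle markers (6 genes) summed to 8666 CPM in MyoD, 715 and 1092 CPM in the chimera without and with the MOI label, and 13.3 to 66.0 CPM in the other 5 libraries. Actc1 made up 5163 CPM of the MyoD sum, and 481 and 690 CPM of the chimera sums. In the chimera Ckm was at 0.301 and 0.347 CPM, against 0.219 CPM in GFP. Des was at 30.3 and 35.5 CPM, against 22.6 CPM in GFP. Actc1, Myog, Myh3 and Tnnt3 were each far above GFP in both chimera libraries. Neuron markers (5 genes) summed to 227 CPM in MyoD and 269 CPM in GFP, and to 641 to 4079 CPM in the other 6. The 7S RNA gene Rn7s6 split the libraries: its level was 13 CPM or more, up to 16.3, for GFP, MyoD, WC and WCS, but 0.565 to 1.28 CPM for the remaining 4. The chimera, both MOI 100 libraries and NeuroD2 are thus on the low side, so comparisons of these 4 with GFP, MyoD, WC or WCS cross the split. Its part in those results was not tested.

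Promoter sequence is shown first, because the constructs differ in the domain that reads E-boxes. The RefSeq table for GRCm38.p6, a newer build than the mm9 of the counts, held a promoter for 6 of the 7 genes, Mylk2 having none. Each window runs from 250 bases before the annotated start to 50 after it and covers 1 start only, although Myl1 and Myl4 each have 8 annotated transcripts. Both strands were searched for CANNTG and for 3 of its forms, no 2 of which can match the same letters. The first, CAGCTG, reads the same on both strands. The other two, CAGATG and CAGGTG, do not, and each was counted in either orientation, so that a hit on the opposite strand is included. CAGCTG was found in 4 of the 6 windows (Myl1, Mylpf, Mybph and Mybpc1) and in 16.3% of 32851 promoters of the table. CAGATG in either orientation was found in Mybpc1 alone of the 6, at 2 places (on the opposite strand it reads CATCTG). It was found in 17.2% of all promoters, and 1.83% held it at 2 or more places. Mybpc2 held CAGGTG at 2 places, 1 in each orientation, against 20.2% of all promoters with at least 1 and 2.88% with 2 or more, and the window of Myl4 held no CANNTG. The start used for Mybpc2 was not matched by the GENCODE annotation. The 50 bases after it were held by 0 Mybpc2 transcripts, against 1 transcript for each other gene searched. The second Mybpc2 site lies past that start, at position 9. At least 1 CANNTG stood in 72.3% of all promoters. A match describes these letters and is no measure of binding.

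The 250 bases before the start are printed for Mylpf and Mybph, which had CAGCTG alone, and for Mybpc1, which also had CATCTG. Any link of these letters to the levels was not tested. Capitals mark each CANNTG. Mylpf lies at chr7:127211358-127211607 (plus strand), Mybph at chr1:134193198-134193447 (plus strand) and Mybpc1 at chr10:88605153-88605402 (minus strand).
Mylpf: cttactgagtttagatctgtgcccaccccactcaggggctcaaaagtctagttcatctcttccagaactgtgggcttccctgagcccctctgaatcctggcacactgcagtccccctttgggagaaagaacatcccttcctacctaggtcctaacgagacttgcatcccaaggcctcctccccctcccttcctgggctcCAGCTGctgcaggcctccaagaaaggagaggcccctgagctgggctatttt
Mybph: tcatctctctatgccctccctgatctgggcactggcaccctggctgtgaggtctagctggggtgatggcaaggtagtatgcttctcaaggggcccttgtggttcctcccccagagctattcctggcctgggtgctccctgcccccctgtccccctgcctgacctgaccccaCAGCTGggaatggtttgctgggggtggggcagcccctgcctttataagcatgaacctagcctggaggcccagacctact
Mybpc1: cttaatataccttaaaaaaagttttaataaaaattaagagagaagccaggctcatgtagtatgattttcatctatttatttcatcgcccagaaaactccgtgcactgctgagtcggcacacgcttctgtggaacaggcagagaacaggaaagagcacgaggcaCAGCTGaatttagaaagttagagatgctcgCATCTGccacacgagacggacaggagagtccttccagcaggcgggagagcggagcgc

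In these windows CAGCTG began 51 bases before the start in Mylpf, 79 in Mybph and 87 in Mybpc1, and CATCTG in Mybpc1 began 57 before it. The second site of Mybpc1, CAGATG, lies just past the start at chr10:88605129-88605158 (minus strand), and the CAGCTG of Myl1, 224 bases before its start, at chr1:66945263-66945292 (minus strand). Both are shown with 12 bases on each side, and the coordinates are those of the whole stretch shown. The Myl1 stretch overlaps 2 annotated exons and lies inside the annotated gene, which reaches chr1:66945404. The CAGATG stretch of Mybpc1 also overlaps 2 annotated exons. The 250 bases printed for Mybpc1 overlap 1 annotated exon, and those printed for Mylpf and Mybph overlap 0. For Myl4, not printed, the 250 bases overlap 3.
Mybpc1: gagcgcagacaaCAGATGtgagaaaggtcc
Myl1: aggtacgtctgtCAGCTGtcaccaaaccaa

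The 3 light chain genes were high with MyoD, lower but clearly above GFP with the chimera, and lower again with WC, WCS and NeuroD2. Mylpf (ENSMUSG00000030672), the regulatory light chain, stood at 0.584 CPM in GFP, 662 in MyoD, 28.6 in the chimera, 37.0 in the chimera at MOI 100, 1.12 in WC, 1.77 in WCS, 1.22 in WCS at MOI 100 and 1.89 in NeuroD2. MyoD was thus 1134-fold above GFP (762 to 1770), and both chimera libraries lay between. NeuroD2, WC, WCS and WCS at MOI 100 were all above GFP, with the largest of these ratios, 3.23-fold (1.96 to 5.47), in NeuroD2.

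Myl1 (ENSMUSG00000061816), the fast essential light chain, stood at 0.122 CPM in GFP, 320 in MyoD, 28.5 in the chimera, 36.2 in the chimera at MOI 100, 0.289 in WC, 0.102 in WCS, 0.345 in WCS at MOI 100 and 0.0349 in NeuroD2. The 5 low libraries had between 1 and 11 counts each, and no interval of a ratio among WC, WCS, WCS at MOI 100 or NeuroD2 over GFP excluded 1. MyoD was 2632-fold above GFP (1127 to 8107), the chimera 234-fold (99.9 to 723) and the chimera at MOI 100 297-fold (127 to 918). Of the 50-base stretches of annotated Myl1 transcripts, 11.7% also occur in the pseudogene Mylf-ps, so some reads could be counted for either.

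Myl4 (ENSMUSG00000061086), the embryonic and atrial essential light chain, stood at 1.51 CPM in GFP, 205 in MyoD, 7.31 in the chimera, 6.07 in the chimera at MOI 100, 0.931 in WC, 1.09 in WCS, 0.376 in WCS at MOI 100 and 0.804 in NeuroD2. Its ratio of MyoD over GFP, 136-fold (106 to 177), was the smallest of the 3 light chain genes. In the chimera it was 4.85-fold above GFP (3.62 to 6.56). In WCS at MOI 100 it was 4.01-fold below GFP (2.14 to 8.18), and it was also below GFP in NeuroD2 (1.88-fold, 1.15 to 3.17) and WC (1.62-fold, 1.03 to 2.61). Exons of Myl4 overlap Gm22000 on the opposite strand. Of the 50-base stretches of Myl4, 0.0428% are shared with another gene, Lin52.

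Because Myl4 is also a heart gene, cardiac markers were read beside it. The 6 cardiac markers summed to 355 CPM in MyoD against 6.49 CPM in GFP. Myh7, a myosin heavy chain of heart and of slow skeletal muscle, made up 346 CPM of that sum. Nkx2-5 was at 0.730 CPM, Nppa at 0.307 CPM and Tnni3 at 1.15 CPM in MyoD, and Myl7, the atrial regulatory light chain, had 0 counts. Gata4 was at 6.76 CPM in MyoD and 0.876 CPM in GFP. In bulk RNA, fewer cells that express a gene and less RNA per cell cannot be told apart.

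Mybph (ENSMUSG00000042451), protein H, followed the light chains. It stood at 0.778 CPM in GFP, 405 in MyoD, 18.3 in the chimera, 34.2 in the chimera at MOI 100, 0.449 in WC, 0.238 in WCS, 0.251 in WCS at MOI 100 and 0.245 in NeuroD2. MyoD was 521-fold above GFP (369 to 762), while WCS (3.27-fold, 1.42 to 8.79), WCS at MOI 100 (3.10-fold, 1.40 to 7.80) and NeuroD2 (3.18-fold, 1.38 to 8.54) lay below it. Mybph overlaps Adora1, the adenosine A1 receptor gene, on the opposite strand, and 43.9% of its 50-base stretches are shared with it. The strand setting of the counting is not given in the sources used here. Adora1, chosen after its values were seen, was likewise highest in MyoD and next in the chimera, with 4.94 CPM in GFP, 162 in MyoD, 28.6 and 66.0 in the chimera without and with the MOI label, and 0.783 to 1.35 CPM in the other 4. Reads from the shared stretches cannot be told apart without strand.

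Mybpc1 (ENSMUSG00000020061), slow-muscle protein C, had another order. It stood at 0.0486 CPM in GFP, 67.9 in MyoD, 4.82 in the chimera, 15.1 in the chimera at MOI 100, 6.29 in WC, 4.89 in WCS, 15.7 in WCS at MOI 100 and 3.18 in NeuroD2. GFP, with 2 counts, was the 1 library without it, and all 7 cultures that received a bHLH factor had at least 91 counts. Against GFP it was 1396-fold higher in MyoD (386 to 11534), 65.4-fold in NeuroD2 (17.6 to 548), 129-fold in WC (35.3 to 1075) and, for WCS, 101-fold (27.3 to 838). WCS and the chimera were not distinguishable by counting error, at 1.01-fold (0.794 to 1.30) without the MOI label and 1.04-fold (0.909 to 1.18) at MOI 100. Exons of Mybpc1 overlap Gm48752 on the opposite strand. Of the 50-base stretches of Mybpc1, 4.36% are shared with Gm48752, so some reads could be of either gene.

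Mybpc2 (ENSMUSG00000038670), fast-muscle protein C, stood at 0.292 CPM in GFP, 0.806 in MyoD, 0.301 in the chimera, 0.729 in the chimera at MOI 100, 0.995 in WC, 1.05 in WCS, 1.28 in WCS at MOI 100 and 0.943 in NeuroD2. MyoD and NeuroD2 did not differ beyond counting error (1.17-fold lower in MyoD, 0.637 to 2.18), so its level did not go with the muscle libraries. Its ratio over GFP had an interval above 1 in every library but the chimera (1.03-fold, 0.366 to 2.75). Those ratios ran from 2.50-fold (1.17 to 5.57) in the chimera at MOI 100 to 4.40-fold (2.27 to 9.20) in WCS at MOI 100. Over the chimera, the ratio of WC was 3.30 (1.48 to 8.31) and that of WCS 3.49 (1.57 to 8.80). At MOI 100 WCS was 1.76-fold above the chimera (1.02 to 3.14). These ratios rest on 8 to 41 counts a library. Exons of Mybpc2 overlap Gm44646 on the opposite strand, and 2.69% of its 50-base stretches are shared with that gene. Mylk2 (ENSMUSG00000027470), the skeletal light chain kinase, had 13 counts in MyoD, 5 in GFP and 0 to 6 elsewhere, with its highest level at 0.499 CPM. Its ratio of MyoD over GFP was 4.10 (1.37 to 14.7). It did not reach 1 CPM in any library, and the floor of 3 counts for its 0 counts in WCS corresponds to 0.102 CPM.

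**Figure D1:**
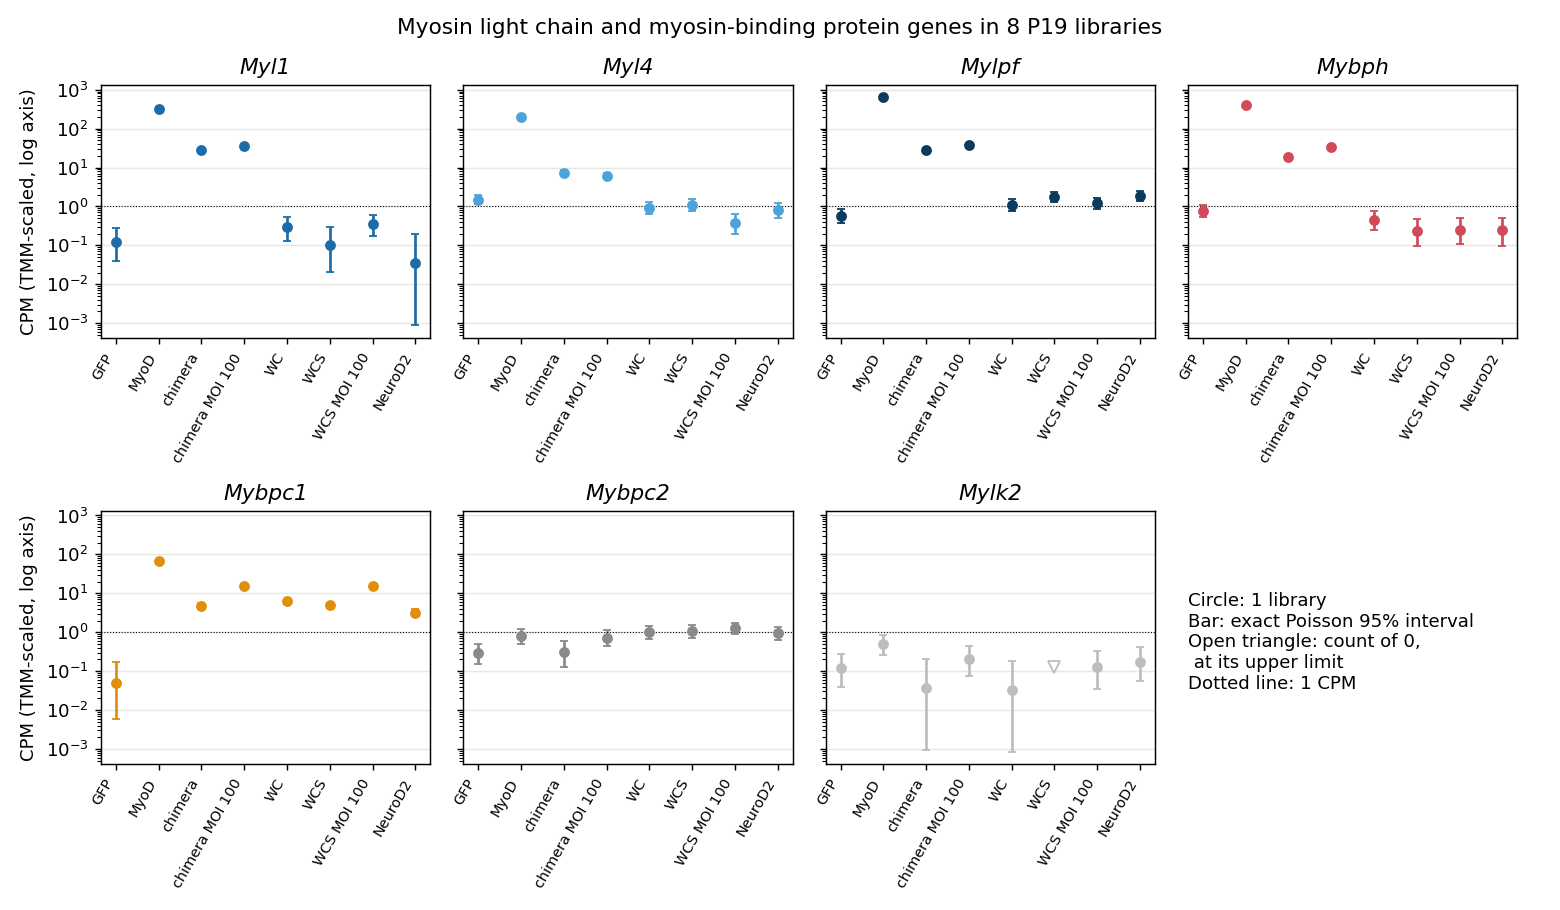
CPM of each gene (log axis) in the 8 libraries, with exact Poisson 95% intervals. Myl1, Myl4, Mylpf and Mybph are high in MyoD and in both chimera libraries only, Mybpc1 is above 3 CPM in every library but GFP, and Mybpc2 and Mylk2 stay at or below 1.28 CPM.

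The libraries were then compared by a fixed size: a ratio of 4 or more after adding 0.5 CPM to both levels, and a level of 5 CPM or more in the higher one. In MyoD over GFP 5 of the 7 genes were higher by that size and 0 lower (Myl1, Myl4, Mylpf, Mybpc1 and Mybph), against 2.75% higher and 0.92% lower of the 15547 genes that reached 1 CPM. The median log2 ratio of the 6 members above 1 CPM was 7.64, beside -0.03 over all genes. In NeuroD2 over GFP 0 members were higher and 0 lower, against 4.37% and 1.6% of all genes, with a median of 0.32 beside 0.03. Mybpc1 had too low a level in NeuroD2 for the 5 CPM minimum, and without a minimum it was 1 higher member. MyoD and NeuroD2 over GFP share the GFP library. Set against each other, MyoD was higher than NeuroD2 for the same 5 genes and lower for 0, against 2.64% and 4.41% of all genes. There Myl1 was 9160-fold higher (1644 to 361832), Mybph 1658-fold (804 to 4125), Mylpf 351-fold (269 to 467), Myl4 255-fold (169 to 402) and Mybpc1 21.4-fold (17.3 to 26.7). The smallest of these, that of Mybpc1, lay below the intervals of the other 4. Scaling to total counts instead moves the log2 ratios of all genes by -0.14 here, by 0.15 for NeuroD2 against GFP, by 0.13 in the chimera at MOI 100 over GFP or over MyoD and in WCS at MOI 100 over WCS, and by 0.22 in WCS at MOI 100 over GFP. Ratios are relative to the TMM scale.

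With the chimera, 3 members were higher than GFP by that size and 0 lower (Myl1, Mylpf and Mybph), against 2.17% and 0.72% of all genes. At MOI 100 there were 4 higher (the same 3 and Mybpc1) and 0 lower, against 5.4% and 2.51%. Mybph was 23.5-fold above GFP (16.4 to 34.8) and 43.9-fold at MOI 100 (30.9 to 64.6), and Mylpf 48.9-fold (32.6 to 76.8) and 63.3-fold (42.3 to 99.3). Myl4 missed the size with a level of 7.31 CPM, since adding 0.5 CPM to both levels brings its ratio under 4.

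Every one of these 5 genes stayed well under its MyoD level in the chimera. All 5 were lower than in MyoD by the fixed size and 0 members were higher. Of all genes 1.91% were lower and 1.42% higher without the MOI label, and 2.3% and 3.9% at MOI 100. As a percent of the MyoD level, the chimera reached 8.90% for Myl1 (8.25 to 9.59), 7.10% for Mybpc1 (5.89 to 8.50), 4.52% for Mybph (4.11 to 4.95), 4.32% for Mylpf (4.01 to 4.64) and 3.57% for Myl4 (3.08 to 4.12). Each neighbouring pair in that order overlaps within its intervals, apart from Mybpc1 and Mybph. At MOI 100 the order was Mybpc1 at 22.3% (20.03 to 24.8), Myl1 at 11.3% (10.6 to 12.1), Mybph at 8.43% (7.89 to 9), Mylpf at 5.59% (5.25 to 5.94) and Myl4 at 2.97% (2.54 to 3.45), and no intervals overlap. Counts of Myod1 and of an early muscle gene were far closer to MyoD. Myod1 counts, which include the delivered sequence, were at 39.0% of MyoD in the chimera and 187% at MOI 100. The chimera lacks the bHLH part of MyoD, so its delivered Myod1 sequence is only a part of that in the MyoD library. Myog, the muscle bHLH factor myogenin, was at 61.2% (57.4 to 65.2) and 207% (197 to 217). The heavy chain gene Myh3 was at 4.32% (4.17 to 4.47) and 4.91% (4.77 to 5.07), in the range of the light chains. Mef2c, a muscle transcription factor, was at 6.64% and 10.6%.

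**Figure D2:**
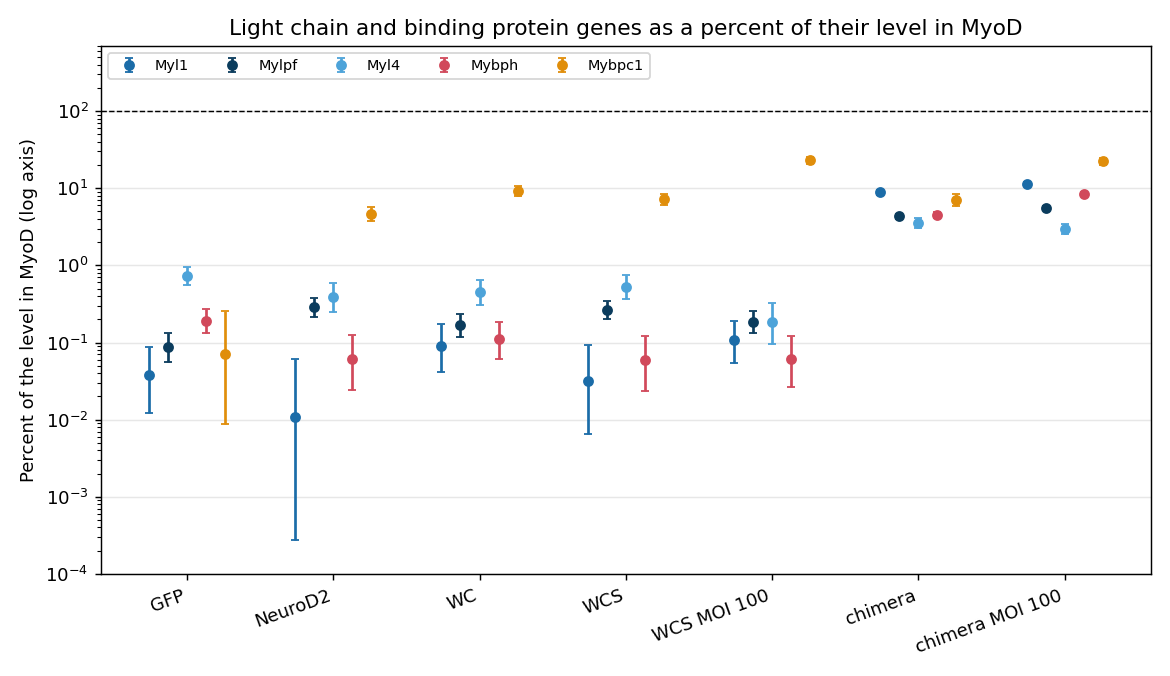
CPM of 5 genes in each library as a percent of their CPM in MyoD (log axis, dashed line at 100%), with exact 95% counting intervals. In both chimera libraries all 5 lie between 2.97% and 22.3%, and in WC, WCS, WCS at MOI 100 and NeuroD2 Mybpc1 alone is above 4%.

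The mutants were compared with the chimera for the same genes. Myl1, Myl4, Mylpf and Mybph were lower by the fixed size in each of the 3 comparisons: in WC over the chimera (against 0.566% of all genes lower and 0.47% higher), in WCS over the chimera (0.753% and 0.592%) and in WCS over the chimera at MOI 100 (1.22% and 0.585%). No member was higher by that size. Mylpf was 25.4-fold lower in WC (18.1 to 36.8), 16.2-fold lower in WCS (12.2 to 21.8) and 30.2-fold lower in WCS at MOI 100 (22.0 to 42.8). Mybph was 40.7-fold (24.1 to 75.1), 77.0-fold (37.1 to 193) and 136-fold (68.9 to 317) lower. Myl4, with the smallest of these ratios, was 7.85-fold (5.30 to 12), 6.72-fold (4.61 to 10.1) and 16.2-fold (9.02 to 31.9) lower. For Myl1, WC lay 98.6-fold below the chimera (51.7 to 216) and WCS at MOI 100 lay 105-fold below it (58.4 to 211). Its ratio of 279-fold in WCS (95.3 to 1358) rests on 3 counts. WC and WCS over the chimera cross the Rn7s6 split, and its part in them was not tested. The MOI 100 pair lies on 1 side of it.

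Against the GFP level WC had 1 member higher by that size (Mybpc1), against 2.57% of all genes, WCS had 0, against 2.54%, and WCS at MOI 100 had 1 (Mybpc1), against 5.47%. None of the 3 had a lower member, against 0.605%, 0.9% and 3% of all genes. Mybpc1 in WCS lay just under the 5 CPM minimum at 4.89 CPM. WC and WCS themselves had 0 members apart by that size, against 0.0129% higher and 0.00643% lower of all genes, and the largest ratio with an interval clear of 1 was that of Mylpf, 1.57-fold lower in WC (1.01 to 2.49). Mybpc1 was 1.29-fold higher in WC (1.03 to 1.61).

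The construct difference was tested across the 4 libraries of the chimera and WCS, in which construct and MOI label cross, with edgeR's quasi-likelihood test and Benjamini-Hochberg adjustment over 16079 genes. Of the 7 members 6 passed the filter on low counts, Mylk2 being left out, and 4 fell in WCS while 0 rose. Over all genes tested 5.49% fell and 5.84% rose. Mybph fell by 6.70 on the log2 scale (adjusted p = 0.00011), Myl1 by 7.15 (adjusted p = 0.00012), Mylpf by 4.45 (adjusted p = 0.00029) and Myl4 by 3.29 (adjusted p = 0.0028). Mybpc1 had a log2 difference of 0.04 (adjusted p = 0.94), with means of 9.98 CPM in the chimera libraries and 10.3 CPM in the WCS libraries. Mybpc2 had a difference of 1.23 (adjusted p = 0.14). This fit has 1 residual degree of freedom, and its p-values measure how alike the difference was at both MOI labels. WCS without the label is on the high side of the Rn7s6 split, and both chimera libraries and WCS at MOI 100 are on the low side. The part of the split in these results was not tested. With no MOI term 0 members passed (edgeR adjusted p from 0.12 to 0.28 for the 4), and with only 3 libraries 3 passed without the chimera or without the chimera at MOI 100, Myl4 being lost, and 0 without WCS or without WCS at MOI 100.

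**Figure D3:**
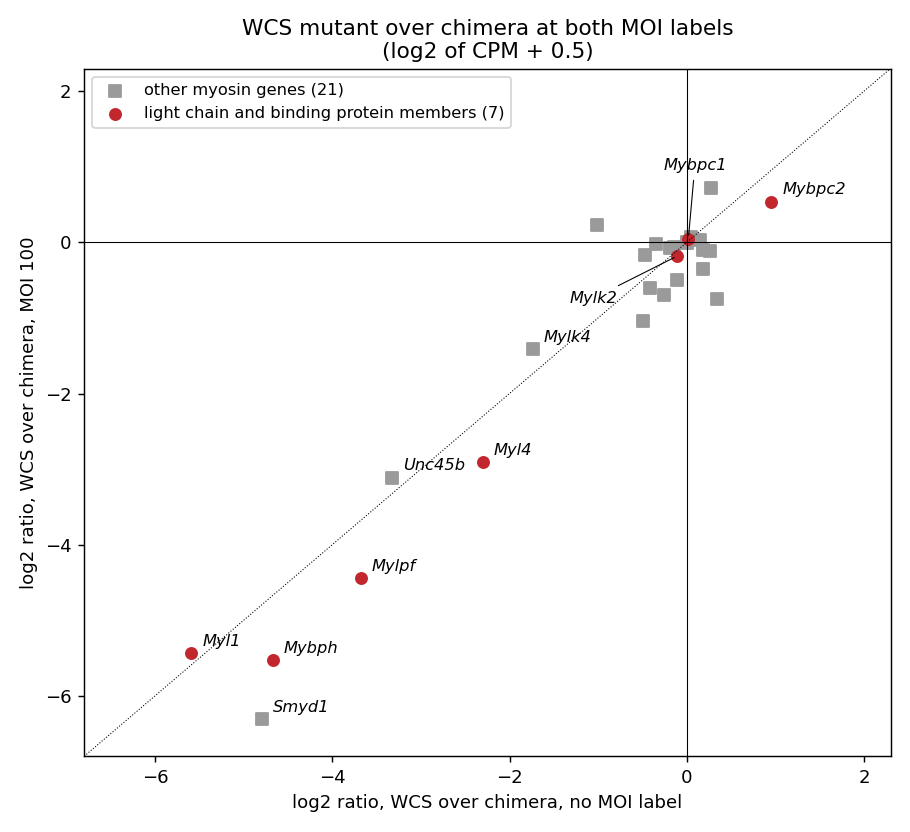
Log2 ratio of WCS over the chimera without the MOI label (horizontal) and at MOI 100 (vertical), each point 1 gene, on log2(CPM + 0.5). Myl1, Mybph, Mylpf and Myl4 lie far below 0 on both axes, as do Smyd1 and Unc45b, and Mybpc1 lies at 0 on both.

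The effect of the MOI 100 label differed in size among the members. In the chimera Mybpc1 was 3.14-fold higher with the label (2.57 to 3.85), Mybph 1.87-fold (1.67 to 2.09), Mylpf 1.29-fold (1.18 to 1.42) and Myl1 1.27-fold (1.16 to 1.40), while Myl4 was 1.20-fold lower (0.976 to 1.48, an interval that includes no difference). In WCS Mybpc1 was 3.20-fold higher (2.66 to 3.88), the same ratio as in the chimera within counting error. Myl4 was 2.89-fold lower in WCS at MOI 100 (1.45 to 6.16), on 32 and 12 counts. The WCS pair crosses the Rn7s6 split and the chimera pair does not, and the part of the split was not tested. Myod1 was at 116 and 555 CPM in the chimera without and with the label and at 77.3 and 857 CPM in WCS, and Neurod2 counts, which include the delivered domain, were at 13.8 and 73.3 and at 14.6 and 130 CPM. By the fixed size 0 members differed between the labels in either construct, against 0.727% of all genes higher and 0.199% lower in the chimera, and 0.714% and 0.463% in WCS.

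The make-up of the light chains was not the same in the chimera as in MyoD. Of the counts of the 2 essential light chains Myl1 and Myl4, Myl4 held 39.0% in MyoD (38.2 to 39.8, Clopper-Pearson), 20.4% in the chimera (17.9 to 23.1) and 14.4% in the chimera at MOI 100 (12.5 to 16.5). The MyoD interval lay above both others. In GFP Myl4 held 92.5% (83.4 to 97.5), of 67 counts. Levels of different genes were compared as CPM per kilobase of annotated exon, with lengths from GENCODE on GRCm38. In MyoD the level per kilobase was 623 for Mylpf, 174 for Mybph, 154 for Myl1, 44.1 for Myl4 and 15.0 for Mybpc1, beside 505 for the heavy chain Myh3. With the length of the longest transcript in place of all exons, Myl1 (296) was above Mybph (175). In the chimera Mylpf (26.9) was again first, followed by Myl1 (13.7), Mybph (7.86), Myl4 (1.58) and Mybpc1 (1.07), whereas at MOI 100 Mybpc1 (3.34) was above Myl4 (1.31).

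Another 21 genes of light chains, their kinases and phosphatase, binding proteins and myosin assembly were read beside these, of which 15 reached 1 CPM. In MyoD over GFP 5 of them were higher by the fixed size and 0 lower, against 2.75% and 0.92% of all genes. Mylk4, a striated muscle kinase of the light chain kinase family, stood at 0.0730 CPM in GFP, 88.2 in MyoD, 1.73 in the chimera, 1.08 in the chimera at MOI 100 and 0.0349 to 0.170 in the other 4, and so was at 1.97% of MyoD (1.44 to 2.63) in the chimera. It was the kinase gene with the MyoD pattern, where Mylk2 stayed under 1 CPM. Myl6b, an essential light chain of slow muscle and other cells, was at 3.72 CPM in GFP and 115 in MyoD, and at 5.71 to 12.4 CPM elsewhere. Myl3, the ventricular and slow-muscle essential light chain, was at 0.681 CPM in GFP, 9.75 in MyoD, 0.716 in the chimera and 0.0347 in the chimera at MOI 100. Exons of Myl3 overlap Pth1r, and exons of Mylk and Unc45b overlap antisense genes, so their counts could hold reads of those genes.

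Of the myosin assembly genes, Unc45b, a myosin chaperone of muscle, stood at 0.486 CPM in GFP, 221 in MyoD, 28.3 and 48.0 in the chimera without and with the MOI label, and 2.38 to 5.11 CPM in the other 4. Smyd1, a muscle methyltransferase that acts in thick filament assembly, stood at 5.40 CPM in GFP, 339 in MyoD, 50.03 and 86.5 in the chimera, 1.32 in WC, 1.32 in WCS, 0.595 in WCS at MOI 100 and 0.978 in NeuroD2. Without the MOI label the chimera thus reached a larger part of the MyoD level for Smyd1 (14.8%, 13.9 to 15.6) and Unc45b (12.8%, 11.8 to 13.8) than for any of the 5 genes above. At MOI 100 Smyd1 was at 25.5% (24.4 to 26.7) and Unc45b at 21.7% (20.4 to 23.0), and both intervals overlap that of Mybpc1. Smyd1 was below GFP with NeuroD2 and both mutants, 9.07-fold in WCS at MOI 100 (5.67 to 15.3). In the 4-library test 14 of the 21 passed the filter, 3 fell in WCS and 0 rose, against 5.49% and 5.84% of all genes: Smyd1 (log2 difference -6.11, edgeR adjusted p = 0.00029), Unc45b (-3.38, adjusted p = 0.00029) and Mylk4 (-3.38, adjusted p = 0.0064). The median over the 14 was -0.26, beside -0.01 over all genes. With no MOI term 0 of the 3 passed (edgeR adjusted p from 0.12 to 0.27). With 1 library left out Mylk4 passed in none of the fits, Unc45b only without the chimera (adjusted p = 0.021), and Smyd1 without the chimera (adjusted p = 0.0014) or without the chimera at MOI 100 (adjusted p = 0.0054).

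Mylk, the smooth muscle and non-muscle light chain kinase, was not highest in MyoD. It stood at 1.41 CPM in GFP, 3.26 in MyoD and 6.80 to 11.8 CPM in the other 6, and was 5.37-fold above GFP in NeuroD2 (4.01 to 7.31). The non-muscle essential light chain Myl6 was at 261 to 451 CPM throughout. Myl9, a smooth muscle regulatory light chain, was at 19.6 CPM in GFP, 15.1 in MyoD and 3.57 in WCS at MOI 100. The 4 smooth muscle markers summed to 219 CPM in GFP, 897 in MyoD and 26.3 to 146 CPM in the other 6. Acta2, a smooth muscle actin, made up 888 CPM of the MyoD sum, while Tagln was at 108 CPM in GFP and 5.95 in MyoD and Cnn1 at 7.86 and 0.614 CPM. Their part in the levels of Mylk and Myl9 was not tested. The cardiac genes Myl2 and Myl7 had at most 6 counts in any library, and Mybpc3, cardiac protein C, was at 0.691 CPM or less.

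**Figure D4:**
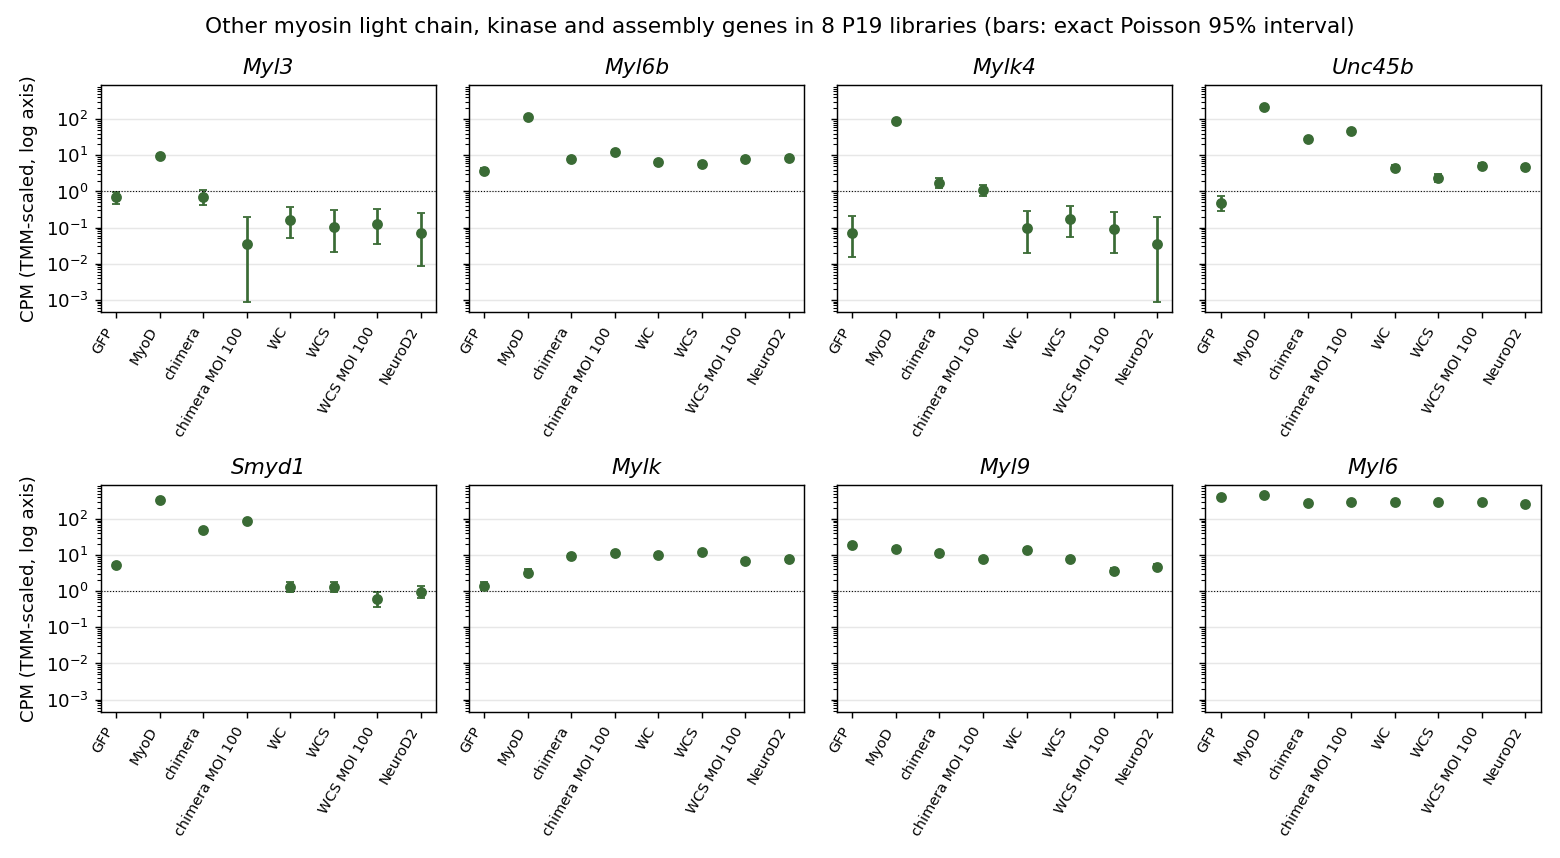
CPM (log axis) of 8 other myosin genes in the 8 libraries, with exact Poisson 95% intervals. Mylk4, Unc45b and Smyd1 peak in MyoD with the chimera libraries below it, Mylk is lowest in GFP, and Myl6 stays between 261 and 451 CPM.

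The mean profile of the 6 members above 1 CPM, on log2(CPM + 0.5) over the 8 libraries, was followed by Mylpf at r = 0.995, Myl1 and Mybph at 0.981 each, Myl4 at 0.955, Mybpc1 at 0.766 and Mybpc2 at -0.117. The members are part of that mean, and MyoD stands far from the other libraries, so these values only describe the order. The 6 genes outside the list with the highest r were Unc45bos (0.999), Lmod2 (0.997), Slf2 (0.997), Trim63 (0.995), Myh8 (0.995) and Slfn5os (0.994). Myh8, the perinatal myosin heavy chain, was at 0.0486 CPM in GFP, 221 in MyoD, 8.51 in the chimera and 0.374 in WCS. Lmod2 encodes an actin filament nucleator of muscle and Trim63 a muscle ubiquitin ligase. Slf2 had the same order on a far narrower scale, with 111 CPM in GFP, 295 in MyoD and 174 in the chimera. Unc45bos and Slfn5os both have annotated exons that overlap exons of Unc45b on the opposite strand, and reads from the overlaps cannot be told apart without strand. With 2 CPM added in place of 0.5, Myh8 and Slfn5os gave way to Casq2 and Gjd4.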

How the data were processed

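The authors deposited raw counts of reads per Ensembl gene for 8 poly(A)-selected libraries, 1 per group, and all 8 columns were used. Per the submitters' processing notes, CASAVA 1.8.2, TopHat2 2.0.8 and mm9 were used. For the counting tool, annotation and strand, nothing is given in the sources used here. Symbols were matched by Ensembl identifier for 32850 genes (87.5%). CPM used TMM factors from edgeR 4.0.16. Intervals of ratios are exact (Clopper-Pearson, conditional on the sum of both counts), and with 1 library a group no test was made of them. The 4-library fit used filterByExpr, construct and MOI label, with an adjusted p threshold of 0.05. Alternatives were DESeq2 1.42.0 size factors and its Wald test, total counts, other pseudocounts, minimums, folds, filters and lengths, no MOI term and each library left out. Software was Python 3.11.15 with scipy 1.17.1, matplotlib 3.10.9, pandas 2.3.3 and numpy 2.4.6, and R 4.3.3. The genes and lists were chosen with earlier results of these data known. The text names the 7 members, fixed counterparts, those of the 21 other genes past the size rule in MyoD, NeuroD2 or the chimera over GFP, and the 6 most alike genes. Protein sequences were not used here.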

Additional observations from a re-analysis of the deposited data

Results flagged for a closer look

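Of 28 genes, the 7 members and the 21 other myosin genes, 4 went in opposite directions with the MOI 100 label in the chimera and in WCS, each with a counting interval clear of no difference. None was a member. Smyd1 was at 1.73 times its unlabelled level in the chimera at MOI 100 and at 0.449 times in WCS at MOI 100. Mylk was at 1.28 and 0.575 times, Ppp1r12a, a myosin phosphatase targeting subunit, at 0.876 and 1.10 times, and Ppp1cb, a catalytic subunit of that phosphatase, at 0.842 and 1.04 times. Each value rests on 1 library per arm, and the difference between constructs was not tested. The WCS pair crosses the Rn7s6 split (14.4 CPM in WCS, 1.28 CPM at MOI 100). The chimera pair does not (0.565 and 1.21 CPM). In WCS the MOI label and the split therefore cannot be told apart.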

How the results depend on the processing

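Of 218 member ratios recomputed with DESeq2 size factors or total counts, 0 changed direction, 3 left their counting interval, and the largest change was 1.16 times. Counts of members past the size rule stayed within 1.5 times under both scalings, a pseudocount of 2 CPM and an 8-fold threshold. Single calls were lost within that margin. At 8-fold Myl4 was not called in WC or WCS over the chimera or in WCS over the chimera at MOI 100. Its log2 ratios there were -2.45, -2.30 and -2.91. Adding 2 CPM lost the same 3 calls. Mybpc1 in the chimera at MOI 100 over MyoD (log2 ratio -2.13) was also lost at 8-fold. With no minimum level NeuroD2 over GFP and WCS over GFP each went from 0 to 1 member, Mybpc1. In the 4-library test the main counts over all genes were 939 that rose and 882 that fell. With no MOI term 0 rose and 0 fell, and members that fell went from 4 to 0. With each library left out in turn, fitted on construct alone with the lone library assumed to vary like the others, 0 to 6 genes rose, 0 to 100 fell, and 0 to 3 members fell. Fewer libraries and no MOI term go together in those fits. The difference of Mybpc1, not called in any fit, was 0.04 in all 4 libraries and -1.02 (without WCS at MOI 100) to 1.11 (without the chimera at MOI 100) with 1 left out, -0.54 without the chimera. DESeq2's Wald test, DESeq2 size factors and no filter kept the 4 member calls. The labels give no replicate numbers to pair libraries by, and the MOI term of the 4-library fit is the 1 block the design allows. At these depths Mylk2 and the low levels of Myl1 rest on a few counts each.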
